A study of Homo sapiens with 12 samples.

Results

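The genes described here are 36 established transcriptional targets of the tumour suppressor p53, followed in SBC5, an established human cell line labelled as small cell lung cancer with the genotype WT. They were chosen by symbol as known p53 targets, and all 36 were found among the 60605 genes of the count table. All 36 also passed the low count filter that left 30967 genes for testing. The combination group received 1 µM olaparib, an inhibitor of poly(ADP-ribose) polymerases, and was exposed to 4 Gy of gamma rays 2 hours later. The radiation group received dimethyl sulfoxide (DMSO) and 4 Gy, the olaparib group 1 µM olaparib and 0 Gy, and the vehicle group DMSO and 0 Gy. Cells were collected after 3 days, and each group had 3 libraries of total RNA. Every group is the same single cell line, and the sources do not say whether the libraries of a group came from separate cultures, so p-values measure the spread between these libraries, which may be technical. The comparisons ask how much of a p53 response this line shows 3 days after damage.

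p53 is a transcription factor that is kept scarce by the ubiquitin ligase MDM2 and held inactive by its relative MDM4. After DNA damage the kinases ATM and CHEK2 act on p53 and MDM2, p53 accumulates, and it binds a motif of paired decamers near its target genes. The targets arrest the cell cycle (CDKN1A), promote death (FAS, BBC3), aid DNA repair (DDB2, XPC) and restrain p53 itself (MDM2, PPM1D). Many of the targets can also be driven by other transcription factors.

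The promoter sequences below show where the core p53 decamer lies in the 6 genes in which it was found. RefSeq (GRCh38.p14) promoter windows, 250 bases before to 50 after a transcript start, were matched by symbol for 27 of the 36 genes, with 41 windows. The decamer was present in 6 of these windows (14.6%), against 2329 of 35116 windows in the whole table (6.63%). The decamer searched was RRRCWWGYYY (R is A or G, W is A or T, Y is C or T), with no mismatch allowed. A decamer with a mismatch would be missed, also next to those shown, so other paired sites may be present. The motif reads the same on both strands. A pair of exact decamers with at most 13 bases between them was found only in DDB2 among these 41 windows, against 10 windows (0.0285%) in the whole table. A match is a description of letters and not a measured binding site. Capitals mark the decamer. The AEN part shown, chr15:88621090-88621339 on the plus strand, is the 250 bases before the start. It holds the decamer 34 bases before the start. The PLK2 part shown, chr5:58460087-58460336 on the minus strand, is likewise the 250 bases before the start. It holds the decamer 132 bases before the start. These are shown because AEN RNA was higher and PLK2 RNA lower after the combination. For MDM4, CCNG1, KITLG and PLXNB2, also called after the combination, no decamer was found. They had none in a matched window or had no matched window. Sites outside the windows would not be seen, also in genes such as MDM2 and CDKN1A, where none was found.

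AEN promoter: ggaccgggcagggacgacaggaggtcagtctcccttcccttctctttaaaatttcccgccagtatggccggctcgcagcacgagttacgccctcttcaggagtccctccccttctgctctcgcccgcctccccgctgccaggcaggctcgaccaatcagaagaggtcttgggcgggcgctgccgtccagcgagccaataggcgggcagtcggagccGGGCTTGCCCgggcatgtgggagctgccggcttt

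PLK2 promoter: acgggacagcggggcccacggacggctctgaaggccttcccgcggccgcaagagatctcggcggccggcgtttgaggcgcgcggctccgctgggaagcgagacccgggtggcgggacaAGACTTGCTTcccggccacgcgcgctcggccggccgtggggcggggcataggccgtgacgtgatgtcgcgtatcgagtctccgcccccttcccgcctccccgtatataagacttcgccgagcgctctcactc

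The shorter stretches are from genes that carry the decamer and had no called change in RNA. They lie at chr11:47214979-47214999 (DDB2, plus strand, just after the start), chr10:88991299-88991328 (FAS, plus strand), chr6:109009018-109009047 (SESN1, minus strand) and chr17:74872986-74873015 (FDXR, minus strand).

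DDB2 element: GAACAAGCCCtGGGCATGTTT

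FAS decamer: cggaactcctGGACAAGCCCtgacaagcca

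SESN1 decamer: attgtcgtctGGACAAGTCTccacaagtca

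FDXR decamer: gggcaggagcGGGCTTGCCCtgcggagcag

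Total counts per library ran from 14.3 to 38.8, in units of 1e+06. In 3 libraries (radiation 3, olaparib 2 and olaparib 3) olfactory receptor genes, which lung cells hardly express, carried more counts: 404 of them summed to 797, 1301 and 1341 counts per 1e+06 (CPM) there, against 357 to 479 CPM in the other 9. Tests therefore used 9 libraries (3 combination, 2 radiation, 1 olaparib, 3 vehicle), and for the targets given library by library the 3 set apart follow in sentences of their own. The single olaparib library was assumed to vary like those of the other groups. Levels are CPM scaled over the 9 libraries, 3 counts correspond to 0.0788 to 0.146 CPM in them, and a gene was called when its adjusted p from edgeR's quasi-likelihood test, with Benjamini-Hochberg adjustment over all 30967 genes, was under 0.05. Among markers of the line, YAP1, which marks a subset of small cell lung cancer without neuroendocrine features, was at 84.0 to 124 CPM and fell after the combination by 0.41 on the log2 scale (adjusted p = 0.000147, or 0.0745 with library size alone). The part of this in the results below was not tested. The neuroendocrine factor INSM1 reached at most 0.29 CPM in the 9 libraries. The synaptic vesicle gene SYP was at 16.4 to 27.3 CPM. The 4 fibroblast markers summed to 13.6 to 19.0 CPM and the 4 lung epithelium markers to 0 to 0.536 CPM in the 9 libraries. The 6 leukocyte markers summed to 81.6 to 101 CPM, of which the lysosomal gene CD68 gave at least 78.1 CPM.

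After the combination the p53 targets showed no common direction. Of the 36 genes, 2 rose (AEN and MDM4) and 4 fell (CCNG1, PLK2, KITLG and PLXNB2), 16.7% in all. Among all genes tested, 1.53% were called higher and 3.26% lower, 4.8% in either direction. These shares are not matched for expression level. Of the 36 genes, 29 were at 2 CPM or more on average, against 14880 of the 30967 tested. The part of level in the difference was not tested. The median log2 change of the 36 was 0.01, against 0.02 over all genes. Without adjustment, 6 of the 36 were higher and 6 lower at p under 0.05, against 6.29% and 8.06% of all genes. The libraries of the combination and of vehicle did not overlap for 7 genes that were higher and 7 that were lower, against 9.15% and 10.4% of all genes. After radiation alone 1 gene, MDM4, rose and none fell, against 0.42% and 0.678% of all genes (1.1% in either direction), and the median log2 change was 0.12, against -0.03 over all genes. After radiation 5 of the 36 were higher and 1 was lower at an unadjusted p under 0.05, against 4.08% and 5.59% of all genes. Bulk RNA cannot tell a strong response of few cells from a weak response of many.

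These counts depend on the scaling of the libraries and on which libraries enter. With library size alone in place of TMM factors, the median of all genes in the combination moved to a log2 change of 0.22, and 7 of the 36 genes were called higher and 2 lower, against 7.35% and 1.03% of all genes under that scaling. AEN, MDM4, PLK2 and KITLG kept their calls under both scalings. With all 12 libraries in the fit, none of the 36 was called in any comparison, and after the combination 0.00314% of all genes were. When that fit also held the olfactory receptor level of each library as a covariate, AEN, MDM4, PLK2 and KITLG were called after the combination, against 2.2% of all genes.

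**Figure D1:**
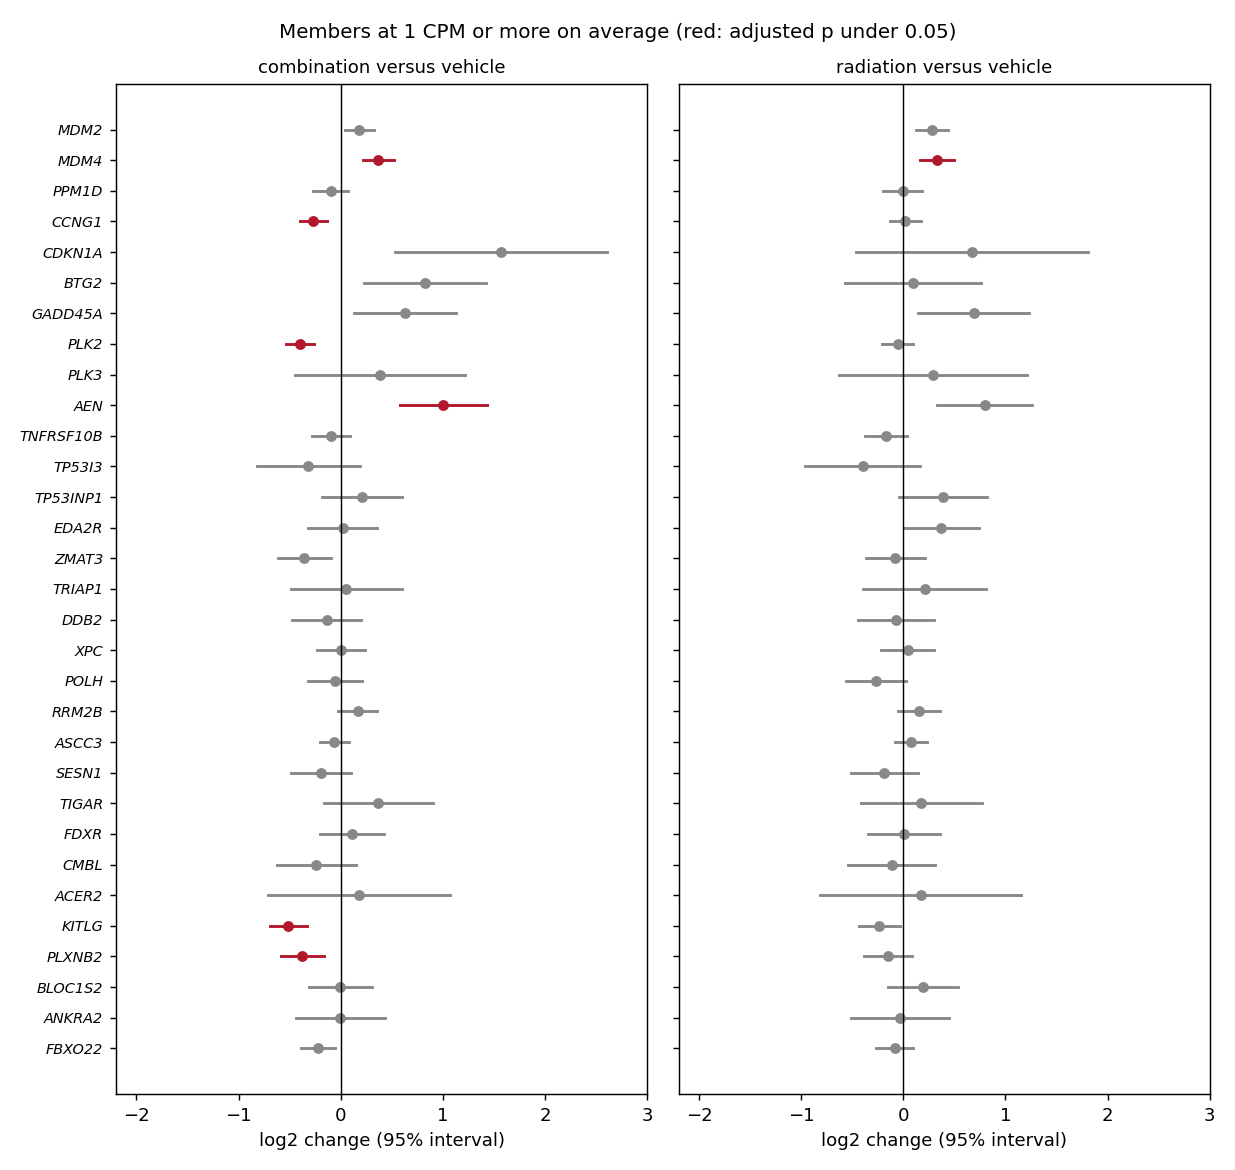
Log2 changes with 95% intervals (horizontal axis) for the 31 genes at 1 CPM or more on average, for the combination (left panel) and radiation (right panel), each against vehicle; red marks an adjusted p under 0.05. Most intervals include 0, AEN stands at 1.01 after the combination, and PLK2 (-0.40) and KITLG (-0.51) stand to the left of 0 there.

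Of the 4 genes that feed back on p53, 1 rose and 1 fell after the combination, against 1.53% and 3.26% of all genes. The roles used here and below hold 2 to 11 genes each, so a single call does not describe a role. MDM4, a relative of MDM2 that binds and inhibits p53, had 161, 150 and 159 CPM in the combination libraries, 144 and 161 CPM in radiation, 116 CPM in olaparib, and 117, 129 and 118 CPM in vehicle. Among the 9 libraries, all 5 irradiated lay above all 4 unirradiated. MDM4 averaged 157 ± 5.58 CPM in the combination against 121 ± 6.56 CPM in vehicle (SD, n = 3 each), a log2 change of 0.37 (SE 0.0752, adjusted p = 0.000423). Radiation alone gave 0.33 (SE 0.0832, adjusted p = 0.0222), and this call was lost when radiation 2 (adjusted p = 0.263), vehicle 1 (0.118) or vehicle 3 (0.0849) was left out. It was also lost when only the radiation and vehicle libraries were fitted (0.0832), with all 12 libraries (0.971), with the olfactory covariate (0.144) and with the replicate block (0.0575). In the libraries set apart MDM4 was at 129 CPM in radiation 3, and at 82.5 and 74.4 CPM in olaparib 2 and 3.

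MDM2, the main ubiquitin ligase for p53 and its classical target, had 165, 179 and 193 CPM in the combination, 189 and 193 CPM in radiation, 163 CPM in olaparib, and 154, 157 and 161 CPM in vehicle. The irradiated libraries again lay above the unirradiated ones, by a small margin. The log2 change of MDM2 was 0.18 after the combination (SE 0.0726, 95% interval 0.04 to 0.33, adjusted p = 0.16) and 0.28 after radiation (SE 0.0805, 0.12 to 0.44, adjusted p = 0.0645). Neither passed the threshold in edgeR's quasi-likelihood test. MDM2 was called after the combination by DESeq2 (adjusted p = 0.039) and with library size alone (6.15e-05). After radiation it was called by DESeq2 (0.00558), limma-voom (0.00639), with DESeq2's size factors (0.046), with library size alone (0.000975) and with a stricter count filter (0.0406). Of the libraries set apart, radiation 3 had 146 CPM and olaparib 2 and 3 had 94.7 and 87.6 CPM, all below vehicle.

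PPM1D, the phosphatase WIP1 that switches damage signalling off, had 70.6, 65.6 and 64.2 CPM in the combination, 77.3 and 65.0 CPM in radiation, 79.4 CPM in olaparib, and 68.5, 75 and 70.6 CPM in vehicle. The groups overlapped, with a log2 change of -0.10 (95% interval -0.27 to 0.08) that became 0.10 with library size alone. PPM1D was at 64.9 CPM in radiation 3, and at 40.2 and 35.8 CPM in olaparib 2 and 3. CCNG1, cyclin G1, which recruits a phosphatase to MDM2, had 347, 325 and 363 CPM in the combination, 451 and 389 CPM in radiation, 425 CPM in olaparib, and 396, 454 and 396 CPM in vehicle. CCNG1 fell after the combination by 0.27 on the log2 scale (SE 0.0682, adjusted p = 0.00792). That call was lost without combination 2 (adjusted p = 0.0694) or vehicle 2 (0.192), and with library size alone the change was -0.07 (adjusted p = 0.685). It was also lost in limma-voom (adjusted p = 0.17) and with the olfactory covariate in all 12 libraries (0.264). CCNG1 was at 341 CPM in radiation 3, and at 226 and 183 CPM in olaparib 2 and 3. After radiation alone the log2 change of CCNG1 was 0.02, and in the combination against radiation it was -0.28 (adjusted p = 0.0552).

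**Figure D2:**
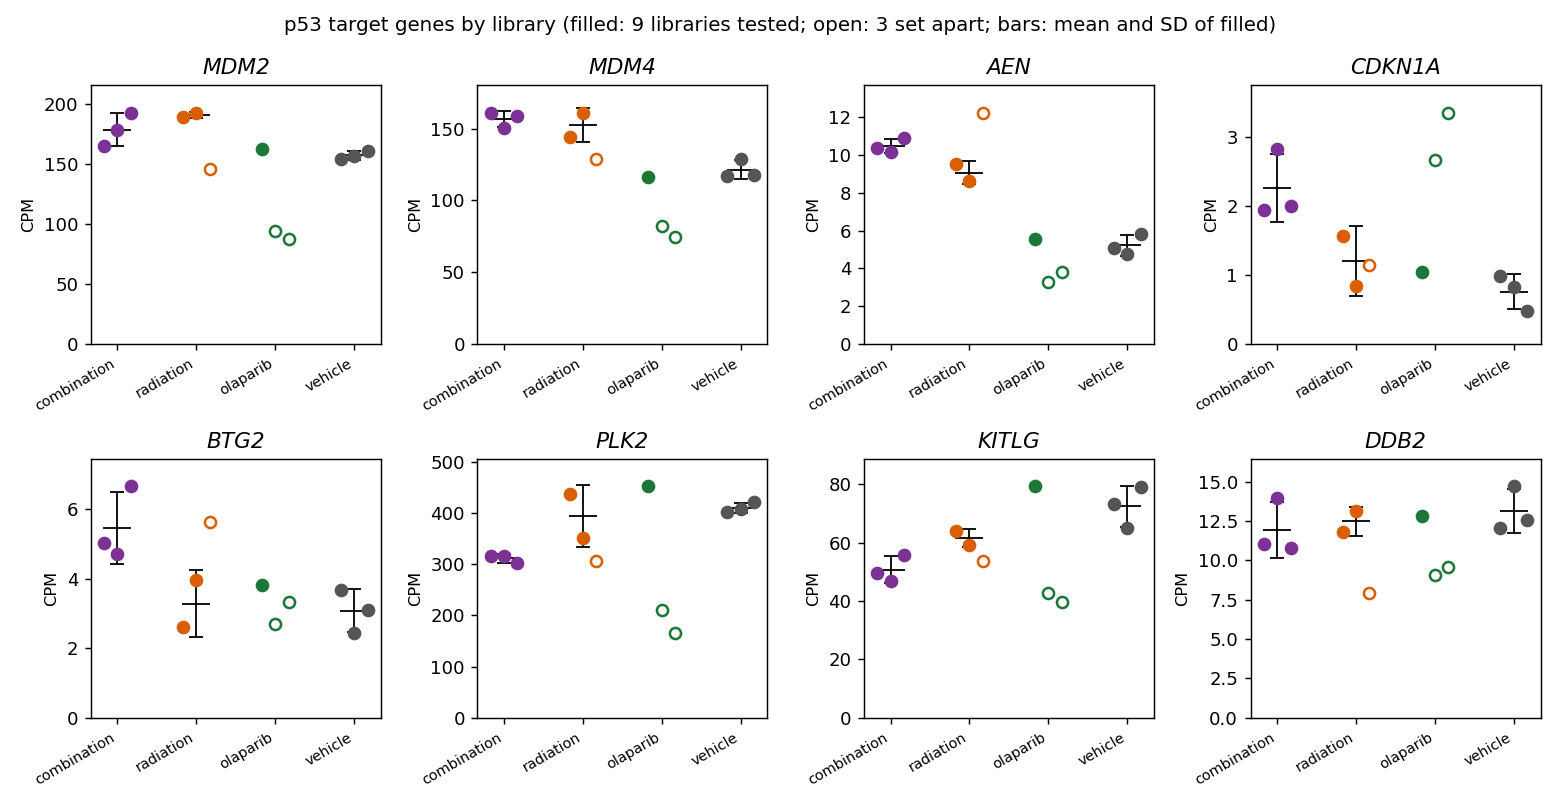
CPM (vertical axis, from 0) of 8 p53 targets in the 12 libraries by group; filled points are the 9 libraries tested, open points the 3 set apart, and bars the mean and SD of the filled points. AEN and MDM4 are higher in the combination and radiation points than in vehicle, PLK2 and KITLG are lower in the combination, and CDKN1A stays under 4 CPM everywhere.

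CDKN1A, the inhibitor p21 that carries the arrest part of the p53 response, was barely expressed. Per kilobase of exon (GENCODE 29) its level in vehicle was 0.25 CPM, rank 31 of the 36 genes, against 134 for CCNG1, 85.9 for PLK2 and 11.9 for MDM2. CDKN1A had 1.95, 2.82 and 2.0 CPM in the combination, 1.57 and 0.844 CPM in radiation, 1.05 CPM in olaparib, and 0.98, 0.823 and 0.48 CPM in vehicle. The combination libraries lay above all others of the 9. Its log2 change after the combination was 1.57 (SE 0.519, 95% interval 0.53 to 2.60, adjusted p = 0.0649), just short of the threshold. The call was made with library size alone (adjusted p = 0.019), with the compared groups fitted alone (0.0434) and without radiation 2 (0.046). CDKN1A was also high in 2 libraries set apart, 2.67 and 3.35 CPM in olaparib 2 and 3, where genes silent elsewhere carry counts, and stood at 1.15 CPM in radiation 3. The part of this background in the combination value was not tested. The olfactory receptor sum was 425 to 475 CPM in the combination libraries and 387 to 458 CPM in vehicle.

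Of the other genes of arrest and growth control, 1 fell after the combination, against 3.26% of all genes, and the rest were not called. BTG2, an antiproliferative gene, had 5.02, 4.71 and 6.65 CPM in the combination, 2.6 and 3.96 CPM in radiation, 3.81 CPM in olaparib, and 3.68, 2.44 and 3.1 CPM in vehicle, with the combination above the rest of the 9. Of the libraries set apart, radiation 3 was at 5.63 CPM and olaparib 2 and 3 at 2.71 and 3.31 CPM. Its log2 change of 0.83 (SE 0.3) had an adjusted p of 0.107. GADD45A, a stress sensor that acts at the G2/M checkpoint, had 6.38, 6.55 and 9.31 CPM in the combination, 8.77 and 6.64 CPM in radiation, 6.12 CPM in olaparib, and 4.82, 3.1 and 6.43 CPM in vehicle. Its combination and vehicle libraries overlapped. GADD45A was at 6.18 CPM in radiation 3, and at 2.59 and 1.93 CPM in olaparib 2 and 3. Its log2 changes, 0.63 after the combination and 0.69 after radiation, had adjusted p of 0.16 and 0.311. BTG2 and GADD45A were both called after the combination with library size alone (adjusted p = 0.0183 and 0.0223). PLK3, a stress-responsive kinase, showed a log2 change of 0.38 after the combination (adjusted p = 0.814).

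PLK2, a polo-like kinase of centriole duplication and a damage-induced p53 target, moved the other way. It had 316, 315 and 302 CPM in the combination, 437 and 351 CPM in radiation, 451 CPM in olaparib, and 402, 407 and 420 CPM in vehicle. The combination libraries were the lowest of the 9. PLK2 fell after the combination by 0.40 on the log2 scale (SE 0.068, adjusted p = 1.74e-05) and was the 1 gene of the 36 called in the combination against radiation, where it fell by 0.34 (SE 0.0754, adjusted p = 0.0095). In that comparison 0.568% of all genes were called in either direction and 0.426% lower. The fall against radiation rested on radiation 1: without that library it was -0.17 (adjusted p = 0.756), and without combination 3 its adjusted p was 0.0654. It was also lost with library size alone (adjusted p = 0.0832), in limma-voom (0.0782) and with the compared groups alone (0.101). The fall against radiation had an adjusted p of 0.194 with the olfactory covariate in all 12 libraries. Of the libraries set apart, radiation 3 had 306 CPM, close to the combination, and olaparib 2 and 3 had 210 and 165 CPM.

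Among the 11 genes of cell death and survival, 1 rose and none fell after the combination, against 1.53% and 3.26% of all genes. AEN, a nuclease that digests DNA during apoptosis, had 10.4, 10.2 and 10.9 CPM in the combination, 9.5 and 8.62 CPM in radiation, 5.55 CPM in olaparib, and 5.06, 4.75 and 5.83 CPM in vehicle. Among the 9, all 5 irradiated libraries were well above all 4 unirradiated, and radiation 3, set apart, was highest at 12.2 CPM. Olaparib 2 and 3, also set apart, were lowest at 3.29 and 3.79 CPM. AEN averaged 10.5 ± 0.362 CPM in the combination and 5.21 ± 0.554 CPM in vehicle (SD, n = 3 each), a 2.01-fold difference (log2 change 1.01, SE 0.213, adjusted p = 0.000742). Radiation alone gave 0.80 (SE 0.233, adjusted p = 0.0709), which was called by DESeq2 (0.0214) and with library size alone (0.0159). The combination was 0.21 above radiation on the log2 scale (95% interval -0.26 to 0.67, not called).

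None of the death receptors was called. TNFRSF10B, the TRAIL receptor DR5, had 57.9, 56.0 and 59.9 CPM in the combination, 51.0 and 59.4 CPM in radiation, 58.3 CPM in olaparib, and 54.6, 65.0 and 66.1 CPM in vehicle, with overlapping groups. TNFRSF10B was at 52.0 CPM in radiation 3, and at 25.1 and 28.9 CPM in olaparib 2 and 3. Its log2 change after the combination was -0.10 (95% interval -0.28 to 0.09). FAS, the receptor of FAS ligand, was at 0.731, 0.672 and 1.14 CPM in the combination, 0.200 and 0.954 CPM in radiation, 0.237 CPM in olaparib, and 0.588, 0.158 and 0.576 CPM in vehicle. The interval of its change, -0.75 to 2.63, is too wide to tell a rise from none. In the libraries set apart FAS was at 0.727 CPM in radiation 3, and at 2.28 and 1.58 CPM in olaparib 2 and 3. TNFRSF10A, the TRAIL receptor DR4, stayed under 0.63 CPM in the 9 libraries.

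ZMAT3, an RNA-binding regulator of splicing and growth, had 20.1, 18.7 and 19.3 CPM in the combination, 25.5 and 21.4 CPM in radiation, 22 CPM in olaparib, and 26.1, 23.3 and 24.9 CPM in vehicle. The combination libraries were the lowest of the 9, with a log2 change of -0.35 and an adjusted p of 0.119. The libraries set apart were lower still, at 16.9 CPM in radiation 3 and at 12.5 and 11.8 CPM in olaparib 2 and 3. EDA2R, the receptor of ectodysplasin A2, had a log2 change of 0.37 after radiation (adjusted p = 0.505) and 0.02 after the combination. TP53INP1, which promotes death and autophagy, and TRIAP1, a mitochondrial inhibitor of apoptosis, had log2 changes of 0.21 and 0.05 after the combination, and TP53I3, a quinone reductase, had -0.32. PHLDA3, an inhibitor of AKT, was under 1 CPM in all 9 libraries. SPATA18, which takes part in mitochondrial quality control, had 0 counts in the 3 vehicle libraries and in olaparib 1. Its 14 counts in the combination were all in library 3, a group level 6.45-fold that of 3 counts over the vehicle group. Its 5 counts in radiation, all in radiation 2, gave 2.57-fold that floor. Each ratio rests on a single library. Neither passed the test (adjusted p = 0.377 and 0.684).

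None of the 5 genes of repair and nucleotide supply was called, against 4.8% of all genes after the combination, and their intervals were narrow. DDB2, which recognises ultraviolet damage and carries the paired decamer shown above, had 11.1, 13.9 and 10.8 CPM in the combination, 11.8 and 13.1 CPM in radiation, 12.8 CPM in olaparib, and 12.1, 14.7 and 12.5 CPM in vehicle. The groups overlapped, and the log2 change after the combination was -0.14 (SE 0.17, 95% interval -0.47 to 0.20), or 0.07 with library size alone. DDB2 was at 7.93 CPM in radiation 3, and at 9.09 and 9.59 CPM in olaparib 2 and 3, all below the 9. RRM2B, the p53-induced subunit of ribonucleotide reductase, had 53.9, 53.6 and 60.8 CPM in the combination, 59.4 and 51.7 CPM in radiation, 55.5 CPM in olaparib, and 45.9, 53.4 and 50.6 CPM in vehicle. RRM2B showed 0.17 (95% interval -0.02 to 0.35, adjusted p = 0.453), which was called with library size alone (0.37, adjusted p = 0.00478). RRM2B was at 45.3 CPM in radiation 3, and at 25.3 and 23.6 CPM in olaparib 2 and 3. XPC, which detects helix distortion, showed 0.00 (-0.23 to 0.23), POLH, a polymerase that copies past damage, -0.06 (-0.32 to 0.21), and ASCC3, a helicase of alkylation repair, -0.06 (-0.20 to 0.08). The upper limit of these 5 intervals was 0.35 at most, on the log2 scale with TMM factors.

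None of the 5 genes of metabolism and redox control was called in any comparison, against 4.8% of all genes after the combination. SESN1, a sestrin that restrains mTORC1, had 15.2, 15.4 and 17.7 CPM in the combination, 14.8 and 17.6 CPM in radiation, 17.6 CPM in olaparib, and 18.1, 19.8 and 17.3 CPM in vehicle. FDXR, the mitochondrial ferredoxin reductase often used as a radiation marker in blood, had 14.5, 15.3 and 16.6 CPM in the combination, 13.5 and 15.2 CPM in radiation, 14.3 CPM in olaparib, and 13.2, 15.1 and 14.6 CPM in vehicle. Both genes carry the decamer in their promoter windows, and both had overlapping groups, with log2 changes of -0.19 (95% interval -0.49 to 0.10) for SESN1 and 0.11 (-0.20 to 0.43) for FDXR after the combination. SESN1 was at 19.98 CPM in radiation 3, the highest of all 12 libraries, and at 14.9 and 10.3 CPM in olaparib 2 and 3. FDXR was at 13.99 CPM in radiation 3, and at 12.1 and 9.15 CPM in olaparib 2 and 3. TIGAR, a fructose bisphosphatase, CMBL, a hydrolase, and ACER2, a ceramidase, had log2 changes of 0.37, -0.24 and 0.18.

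Of the secreted factors, KITLG fell after the combination and GDF15 was close to the detection floor. GDF15, a stress-induced cytokine, had 1, 11 and 13 counts in the combination, 1 and 8 in radiation, 3 in olaparib, and 0, 5 and 2 in vehicle. Of the libraries set apart, radiation 3 had 14 counts and olaparib 2 and 3 had 12 and 26. The groups overlapped, and its log2 change of 2.29 (SE 1.76, 95% interval -1.22 to 5.80) cannot be read as a change at this depth. KITLG, the ligand of the receptor KIT, had 49.5, 46.8 and 56.0 CPM in the combination, 63.9 and 59.4 CPM in radiation, 79.3 CPM in olaparib, and 73.2, 65.2 and 79.1 CPM in vehicle. In the 9 libraries the combination was lowest, radiation between, and the unirradiated libraries highest. Of the libraries set apart, radiation 3 was at 53.8 CPM and olaparib 2 and 3 at 42.9 and 39.8 CPM. KITLG fell by 0.51 on the log2 scale after the combination (SE 0.0909, adjusted p = 3.71e-05), and its log2 change was -0.23 after radiation (SE 0.101, adjusted p = 0.4) and -0.28 in the combination against radiation (adjusted p = 0.243). PLXNB2, a semaphorin receptor, had 33.9, 33.8 and 29.2 CPM in the combination, 35.7 and 39.6 CPM in radiation, 42.7 CPM in olaparib, and 37.9, 41.5 and 46.2 CPM in vehicle, and fell by 0.37 after the combination (SE 0.106, adjusted p = 0.0204). That call was lost without combination 3 (adjusted p = 0.155), vehicle 2 (0.0631) or vehicle 3 (0.187), with library size alone (0.39) and with the olfactory covariate in all 12 libraries (0.133). PLXNB2 was at 34.5 CPM in radiation 3, and at 23.4 and 24.7 CPM in olaparib 2 and 3. BLOC1S2, a lysosome positioning subunit, ANKRA2, an ankyrin repeat adaptor, and FBXO22, a ubiquitin ligase subunit that acts on p53 complexes, had log2 changes of 0.00, 0.00 and -0.22 after the combination, none called.

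Olaparib alone left no call among the 36 genes in its single tested library, by edgeR's quasi-likelihood test, DESeq2 or limma-voom, and no gene at an unadjusted p under 0.05; over all genes these shares were 0.0678% and 3.34%. The median log2 change was 0.08, against -0.02 over all genes. In this library MDM2, MDM4 and AEN were at 163, 116 and 5.55 CPM, near vehicle. The interaction of olaparib and radiation was not called for any of the 36 genes, against 0.2% of all genes. It was negative at an unadjusted p under 0.05 for 6 genes (PLK2, CCNG1, KITLG, EDA2R, ASCC3 and PHLDA3, named after their values were seen) and positive for none, against 3.38% and 3.79% of all genes. The largest in statistical terms was PLK2 at -0.48 (SE 0.121, adjusted p = 0.0621). All interaction values rest on the single olaparib library.

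**Figure D3:**
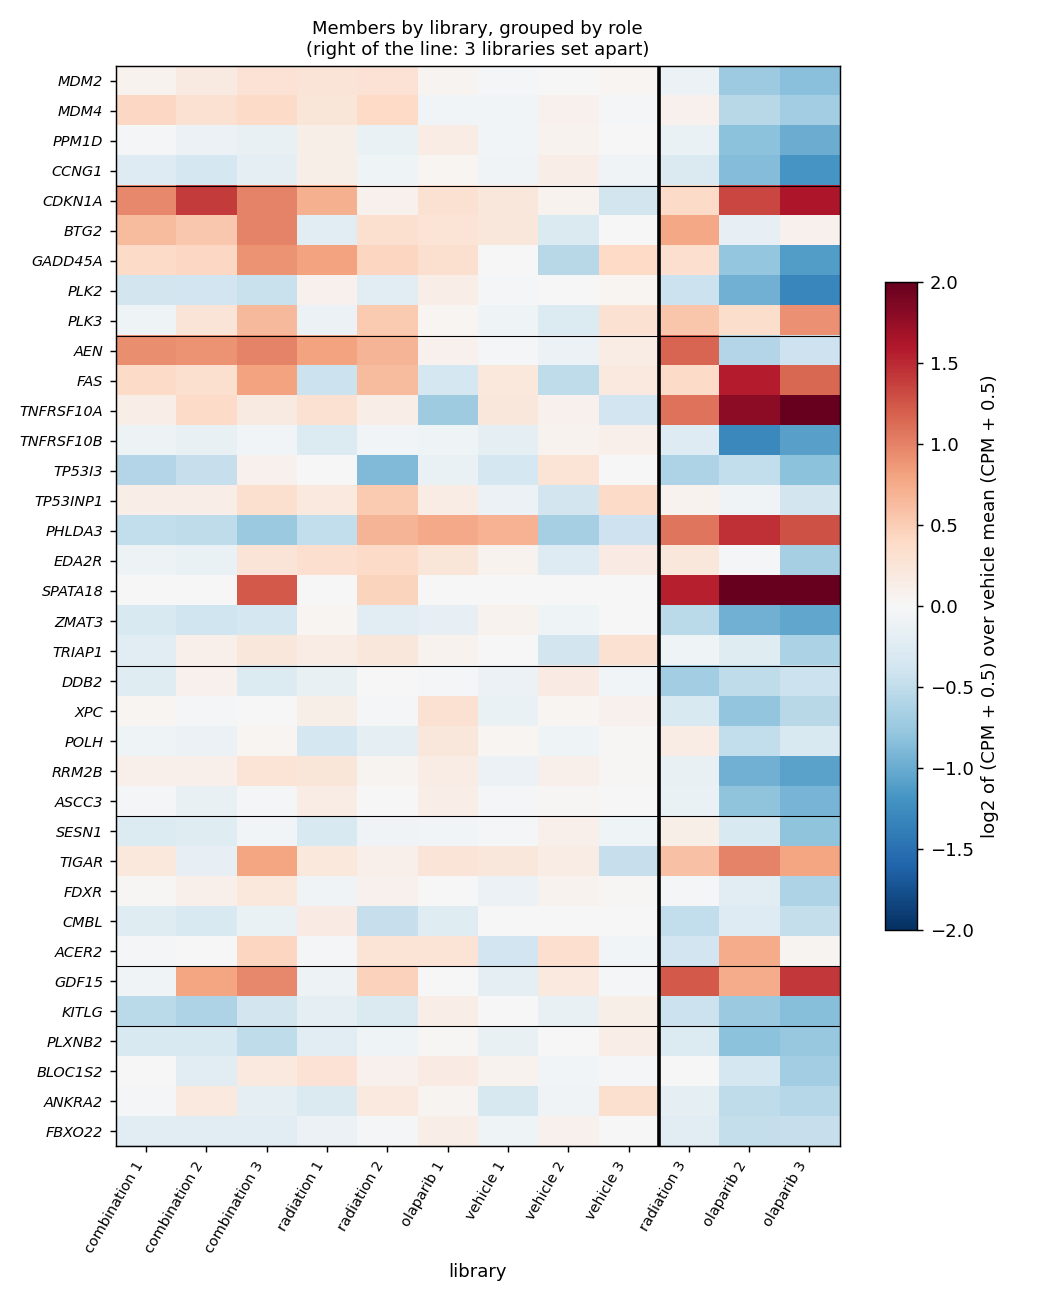
Log2 ratio of CPM (offset 0.5) to the vehicle mean for the 36 genes (vertical axis, grouped by role) in the 12 libraries (horizontal axis); the 3 libraries right of the line are set apart. The AEN and MDM4 lines are red in the 5 irradiated libraries of the 9, most repair genes are pale there, and many genes that are well expressed are blue in olaparib 2 and 3.

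Set side by side over irradiation alone, a division of the 9 libraries chosen after the values were seen, 3 genes had all 5 irradiated libraries above all 4 unirradiated ones (MDM2, MDM4 and AEN) and 1 had them below (KITLG), against 2.45% and 3.4% of all genes. For KITLG the 5 irradiated libraries were at 46.8 to 63.9 CPM and the 4 unirradiated at 65.2 to 79.3 CPM. Among the 29 genes at 2 CPM or more, the mean Pearson correlation over the 406 pairs in the 9 libraries was 0.0687, against 0.00616 among all 14880 genes at that level. The highest pairs were MDM4 with AEN (0.90), PLK2 with KITLG (0.87) and CCNG1 with PLK2 (0.85), and the lowest was MDM4 with KITLG (-0.88). The points of these correlations share libraries, groups and scaling.

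In olaparib 2 and 3, set apart, 20 and 24 of the 36 genes were below all 9 libraries tested, against 27.2% and 27.9% of all genes. In radiation 3 this held for 7 of the 36 (15.9% of all genes). In all 3 libraries at once, 5 of the 36 were below the 9, against 12.1% of all genes. The shares in this paragraph are not matched for expression level. In the 9 libraries 29 of the 36 genes were at 2 CPM or more, against 14880 of the 30967 tested. The part of level in these shares was not tested.

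Beyond the 36, a list of 43 other p53 targets, of which 41 were tested, gave 4 genes higher and none lower after the combination, and 3 higher and none lower after radiation. Of all genes, 1.53% were called higher and 3.26% lower after the combination, and 0.42% and 0.678% after radiation. This list too was chosen with earlier results of these data known, so it is not an independent check of the 36. The comparison with all genes is not matched for expression level. ATF3, a stress-induced transcription factor, had 7.99, 9.95 and 7.27 CPM in the combination, 6.90 and 5.83 CPM in radiation, 3.15 CPM in olaparib, and 1.88, 1.87 and 3.52 CPM in vehicle. ATF3 rose by 1.79 on the log2 scale after the combination (SE 0.274, adjusted p = 1.53e-06) and by 1.39 after radiation (SE 0.295, adjusted p = 0.00275). CES2, a carboxylesterase, rose by 0.60 and 0.57 (adjusted p = 0.00268 and 0.0433), and PTP4A1, a phosphatase, by 0.43 and 0.27 (adjusted p = 2.33e-06 and 0.0431). The ATF3 and PTP4A1 rises after the combination held in every alternative except the fit of all 12 libraries, and that of CES2 was also lost without combination 2 (adjusted p = 0.0858). After radiation the ATF3 call was lost without radiation 1 (adjusted p = 0.0944) or vehicle 2 (0.0527), with the compared groups alone (0.0538) and with all 12 libraries (0.934). After radiation the calls of CES2 and PTP4A1 were lost in 6 and 8 of the 9 fits that left out 1 library, with adjusted p up to 0.218 (without radiation 2) and 0.337 (without radiation 1). Those of CES2 and PTP4A1 were also lost with the compared groups alone (0.0858 and 0.148), with all 12 libraries (0.934 and 0.987), with the olfactory covariate (0.0664 and 0.338) and with the replicate block (0.115 and 0.15). PMAIP1, the apoptosis inducer NOXA, had 10.4, 10.6 and 14.1 CPM in the combination, 11.3 and 12.1 CPM in radiation, 7.60 CPM in olaparib, and 7.53, 7.25 and 6.82 CPM in vehicle. PMAIP1 rose after the combination by 0.70 (SE 0.194, adjusted p = 0.0168), a call lost without combination 3 (0.229), vehicle 2 (0.0609) or vehicle 3 (0.0768), while radiation gave 0.70 with an adjusted p of 0.0884. SESN2, a sestrin, had a log2 change of 1.33 in both comparisons (adjusted p = 0.0502 and 0.176), and was called after the combination in 6 of 19 alternatives. ATF3, PMAIP1 and SESN2 are also known targets of stress pathways other than p53. BAX and BBC3 (PUMA), the classical death effectors, had log2 changes of 0.04 and 0.00 after the combination, with intervals of -0.50 to 0.59 and -0.77 to 0.77. The median of this list was -0.03 after the combination and 0.00 after radiation, against 0.02 and -0.03 over all genes.

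Of the 26 genes of p53 and its regulators, none rose and 2 fell after the combination, and none was called after radiation. The 2 are 7.69% of the list, against 4.8% of all genes called after the combination, 3.26% lower. CDKN2A, whose product ARF inhibits MDM2, fell by 0.55 (SE 0.133, adjusted p = 0.00395), and RPL5, a ribosomal protein that also binds MDM2, fell by 0.30 (SE 0.0666, adjusted p = 0.00132). With library size alone neither was called (adjusted p = 0.0952 and 0.411), and 8 regulators were called higher and none lower, against 7.35% and 1.03% of all genes under that scaling. CDKN2A was also not called without vehicle 3 (adjusted p = 0.103), nor RPL5 with the olfactory covariate in all 12 libraries (0.164). The damage kinases ATM and CHEK2 had log2 changes of -0.14 and 0.16 (adjusted p = 0.319 and 0.604). With library size alone these were 0.06 (adjusted p = 0.743) and 0.36 (0.0289), so that CHEK2 was called and ATM changed sign. Of 23 cell cycle genes that p53 represses through p21 and the DREAM complex, 1 fell after the combination (4.35%, near the share of all genes): RRM2, the S phase subunit of ribonucleotide reductase, by 0.36 (SE 0.0776, adjusted p = 0.000921, or 0.218 with library size alone, where ECT2, an exchange factor of cytokinesis, was the 1 gene called and was higher). RRM2 was also not called with the olfactory covariate in all 12 libraries (adjusted p = 0.0582). None was called after radiation by edgeR's quasi-likelihood test. At an unadjusted p under 0.05 in that test, 2 of the 23 were higher and 1 lower, against 4.08% and 5.59% of all genes. DESeq2 called 1, FOXM1, lower after radiation, and its share of all genes called is not reported here. The median of these 23 was -0.04 after the combination and 0.08 after radiation.

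**Figure D4:**
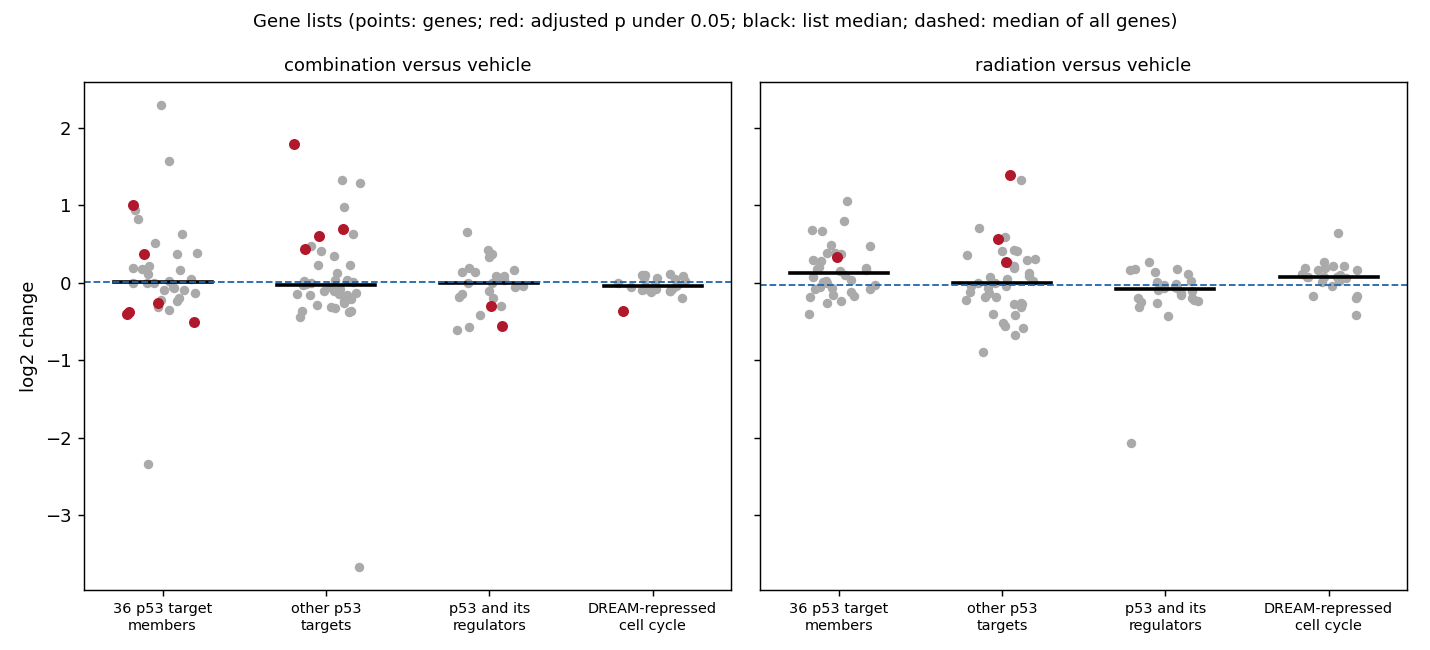
Log2 changes (vertical axis) of the genes of 4 lists after the combination (left) and radiation (right), against vehicle; red marks an adjusted p under 0.05, black bars list medians and the dashed line the median of all genes. SPATA18, with 0 counts in vehicle, is not drawn. The list medians lie near the dashed line, and called genes are few in each list.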

How the data were processed

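SBC5 RNA was measured in 12 libraries. The tools named in the submitters' processing notes are kallisto 0.46.1 and DESeq2. The transcript set they used is not given in the sources here. The deposited values are estimated counts (expected counts) per gene, 68.8% of them whole to within 1e-06. Counts of 44 pseudoautosomal chromosome Y copies were merged with the X copies, leaving 60605 genes, 60463 with a symbol, and were rounded. The genes and lists were chosen with earlier results of these data known.

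In R 4.3.3, edgeR 4.0.16 fitted 9 libraries (low count filter, TMM factors, robust quasi-likelihood F-tests, Benjamini-Hochberg adjustment over 30967 genes, threshold 0.05); 3 libraries with a high olfactory receptor sum were set apart. The standard error is the log2 change over the square root of F. Intervals are 95%. The 3 treatments were each compared with vehicle, the combination with radiation, and the interaction tested. The floor of 3 counts covers counting error only. Of the 36 genes, values are given in every library for those called in any comparison and for 14 classical targets, and as ranges or changes for the others. Alternatives were other scalings and filters, DESeq2 1.42.0, limma-voom (limma 3.58.1), other sets of libraries, a replicate block and each library left out. The scripts were tested on simulated data. Values of some single genes of the lists are not reported here. Coordinates are RefSeq's on GRCh38.p14, which may not be the build behind the counts.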

Additional observations from a re-analysis of the deposited data

Results flagged for a closer look

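In the data left out of the tests, 3 of the 36 genes had more signal in all 3 libraries set apart than in any of the 9 tested, which is 8.33% of them, against 20.6% of all genes. TNFRSF10A, a TRAIL receptor, was at 1.33 CPM in radiation 3, 2.48 CPM in olaparib 2 and 3.87 CPM in olaparib 3, against at most 0.628 CPM in the 9. PHLDA3, an inhibitor of AKT, was at 1.27, 1.82 and 1.54 CPM in the same libraries, against at most 0.92 CPM. SPATA18 was at 0.969, 1.59 and 1.66 CPM, against at most 0.665 CPM. The highest value of the 9 was in combination 2 for TNFRSF10A, olaparib 1 for PHLDA3 and combination 3 for SPATA18. Library by library, 6 of the 36 in radiation 3, 6 in olaparib 2 and 7 in olaparib 3 were above all 9, against 25.8%, 37.6% and 37.9% of all genes. These 3 libraries were set apart because genes that lung cells hardly express carried more counts there. The 3 named genes were themselves at 0.92 CPM or less in the 9. None of these shares is matched for expression level, and the part of background and of level in them was not tested.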

How the results depend on the processing

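Over 19 alternatives, 9 of which leave out 1 library, no called result changed direction. Among the 36, log2 changes of single genes were followed across the alternatives only for called genes and the classical targets. Of these, PPM1D, SESN1, TNFRSF10B and DDB2, not called after the combination, changed sign with library size alone (0.10, 0.01, 0.10 and 0.07). The signs of the other genes of the 36 under this scaling are not reported here. After the combination, 6 genes were called in the 9 libraries, 0 with all 12, and 4 to 7 with 1 library left out. After radiation, where 1 was called, the count was 2 with DESeq2's size factors, the stricter filter (1 CPM in 3 libraries) or limma-voom, 3 with library size alone or DESeq2, 0 with the compared groups alone, all 12 libraries or the replicate block, and 0 to 1 with 1 library left out. For the combination against radiation, where 1 was called, the count was 2 without a filter or with DESeq2, 0 with library size alone, limma-voom, the compared groups alone, all 12 libraries, or all 12 with the olfactory covariate, and 0 to 2 with 1 library left out. For the interaction, where 0 were called, 1 was called without a filter or with DESeq2, and 0 to 1 with 1 library left out. Olaparib gave 0 under every alternative that could be fitted; it and the interaction have no value without olaparib 1, and the interaction none in compared groups alone. The share of all genes called also moved between fits. After the combination it was 4.8% in the 9 libraries, 0.00314% with all 12 and 2.2% with the olfactory covariate. With library size alone 7.35% were higher and 1.03% lower. For the other alternatives these shares are not reported here, so a larger count alone does not show a stronger response. The causes were not tested. Replicate numbers did not pair the combination with vehicle: deviations of same-numbered combination and vehicle libraries correlated at 0.055, -0.101 and -0.083, and combination 1, 2 and 3 did not each correlate best with their own number. For radiation 1 and 2 the values were -0.154 and 0.021, and 2 pairs cannot settle the pairing. With the replicate block 6 genes were called after the combination, as without it. For the 5 genes under 1 CPM on average, the intervals were wide, the narrowest that of FAS (-0.75 to 2.63).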
